A study of Mus musculus with 2 samples.

Results

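Among liver endothelial cells profiled by single-cell RNA-seq, 137 barcodes carried transcripts of hepatocytes beside those of endothelium. They were chosen by their own counts: at least 1500 UMIs (unique molecular identifiers, each counted as 1 captured RNA molecule) and 750 genes, at least 2 UMIs over the endothelial genes *Pecam1*, *Cdh5* and *Ptprb*, none of the leukocyte gene *Ptprc*, and at least 3 UMIs over 4 hepatocyte genes, here called the 4 marker genes, of which *Bhmt*, *Gnmt* and *Fbp1* are described. These 137 stood among 8964 endothelial barcodes that met all conditions but the last, 10384 barcodes past the minima on UMIs and genes, and 12755 barcodes in all. Such barcodes may be an endothelial cell still attached to a hepatocyte, 2 cells in 1 droplet, or an endothelial cell in a droplet with free hepatocyte RNA, and from the counts these cannot be told apart. The values that chose them are given as a description.

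Hepatocytes divide their work along the blood flow of the lobule, an arrangement called metabolic zonation. Periportal hepatocytes, near the inflowing blood, make urea and glucose and break down amino acids, whereas pericentral hepatocytes, around the central vein, make glutamine and carry many cytochromes P450. The endothelium is zoned too: pericentral endothelial cells secrete Wnt2, Wnt9b and Rspo3, which maintain the pericentral programme of the hepatocytes next to them. In a barcode with RNA of both kinds, the zonated genes of each can be counted. Whether the hepatocyte RNA came from a neighbour of the endothelial cell was not tested.

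The study isolated endothelial cells from mouse livers with CD146 microbeads after the hepatocytes had been spun down at low speed, and made 1 droplet-based 3′ library per genotype from a pool of 3 mice each. The first library came from controls, which are Cre-negative littermates (*Clec4g-iCre* wt/wt) with 1 or 2 floxed *Maf* alleles according to the methods and are named WT in the labels. The other came from MafLSEC-KO mice, *Clec4g-iCre* tg/wt with *Maf* fl/fl, in which Cre is driven by the LSEC gene *Clec4g*, so that the transcription factor c-Maf is removed from liver sinusoidal endothelial cells (LSECs) from late fetal life. Mice of both sexes at 3 and 6 months of age were used in the study, and the age and sex behind these libraries are not given. Per the paper, experiments after its diet part used only chow-fed mice, and no other treatment is named for these libraries. With 1 library per genotype there are no replicates and no test is possible between genotypes, since barcodes of 1 library are not replicates. Intervals are exact 95% intervals (Poisson for sums, Clopper-Pearson for shares) and cover counting error only.

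The control library held 47681895 UMIs in 5664 barcodes and the MafLSEC-KO library 89872764 in 7091, and endothelial barcodes had a median of 8632 and 14370.5 UMIs. The libraries had 10 barcode sequences in common, 7 of them past the minima; no sequence was a member in both, and 1 member shared its sequence with a barcode of the other library. The targeted gene followed the labels within these barcodes: *Maf* had 3972 UMIs in 97 of the 99 control barcodes and 65 UMIs in 8 of the 38 MafLSEC-KO barcodes, of which 37 were in 1 barcode. Levels below are a gene's UMIs per 1000000 UMIs (CPM), both summed over a set of barcodes, with mitochondrial and ribosomal protein genes kept out of the total.

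Endothelial barcodes with hepatocyte transcripts were more frequent in the control library. They numbered 99 of 4546 (2.18%, interval 1.77 to 2.65%) in control and 38 of 4418 (0.860%, 0.609 to 1.18%) in MafLSEC-KO, although the MafLSEC-KO barcodes were deeper. In control the share was 1.29% at 1500 to 5000 UMIs, 1.61% at 5000 to 10000, 2.59% at 10000 to 20000 and 7.09% above 20000. In MafLSEC-KO the same bands gave 1.03%, 1.23%, 0.522% and 1.001%. After each barcode was thinned at random to 3000 UMIs, with 518 control and 254 MafLSEC-KO barcodes left out as too shallow, 25 of 4028 (0.621%) and 12 of 4164 (0.288%) still had 3 marker UMIs.

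The background was read from immune barcodes, which should not make these RNAs (at least 2 *Ptprc* UMIs and none of the 3 endothelial genes; 59 in control and 137 in MafLSEC-KO, median depths 4311 and 4762 UMIs). Of these, 1 of 59 (1.69%, 0.0429 to 9.09%) and 0 of 137 (0 to 2.66% by the same exact interval, 2.19% if 3 counts are taken as the limit of a count of 0) had at least 3 marker UMIs. A single marker UMI was common everywhere: at 3000 UMIs, at least 1 was found in 6.41% of endothelial and 11.1% of immune barcodes of control (5 of 45), and in 2.88% and 5.13% (6 of 117) of MafLSEC-KO. Without thinning the shares were 12.4% and 8.47% in control and 8.87% and 5.84% in MafLSEC-KO. Endothelial barcodes with 1 or 2 marker UMIs, 463 in control and 354 in MafLSEC-KO, were kept as a set of their own. They were not at the level of barcodes without marker UMIs: *Fabp1*, the liver fatty acid binding protein, stood at 92.5 CPM in control and 27.8 CPM in MafLSEC-KO and was found in 35.2% and 25.4% of them, against 20.8 and 6.75 CPM in 12.8% and 7.33% of barcodes at 0. The immune share at 3000 UMIs was higher in the control library, as was the share of endothelial barcodes past the rule. The intervals of these immune shares overlapped (3.71 to 24.1% in control and 1.90 to 10.8% in MafLSEC-KO). The 31 further hepatocyte genes described below ran the other way. In immune barcodes they had medians of 0.00728% of UMIs in control and 0.0442% in MafLSEC-KO. The immune sets also differed in their cells. A list of 8 genes of Kupffer cells, the macrophages of the liver, stood at 1239 CPM in control and 4819 CPM in MafLSEC-KO immune barcodes. Whether such cells gave part of the RNA of the 31 genes was not tested. The part of free RNA in the difference between libraries was not tested. At least 3 marker UMIs without endothelial or *Ptprc* UMIs were found in 1 barcode per library past the minima. That of control had 35 marker UMIs among 2533.

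In control, *Bhmt*, which methylates homocysteine, had 317 UMIs in 89 barcodes, *Gnmt*, a glycine methyltransferase, 238 in 78, and *Fbp1* of gluconeogenesis 149 in 56. In MafLSEC-KO, *Gnmt* had 121 UMIs in 31 barcodes, *Bhmt* 120 in 32 and *Fbp1* 64 in 22. *Fbp1* is known to be higher in periportal hepatocytes, so the rule does not choose all zones alike. All 4 marker genes were present in 31 control and 15 MafLSEC-KO barcodes, and 8 and 2 barcodes passed on 1 gene. The median was 5 marker UMIs in both libraries and the highest barcode had 56 in both. In control 37 barcodes had 3 or 4 marker UMIs, 35 had 5 to 9 and 27 had 10 or more, against 18, 11 and 9 in MafLSEC-KO.

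Just inside the threshold, at 3 marker UMIs, 31 further hepatocyte genes made up a median of 0.165% of UMIs in 21 control barcodes and 0.0736% in 12 MafLSEC-KO barcodes. Just outside, at 2 marker UMIs, the medians were 0.0737% in 93 and 0.0322% in 43 barcodes. *Fabp1* was found in 20 of 21 and 8 of 12 barcodes inside and in 59 of 93 and 15 of 43 outside.

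The 31 genes are 16 secreted proteins and 15 enzymes and other cell proteins of hepatocytes, none of them used by the rule. They took a median of 0.274% of a barcode's UMIs in control (0.0117 to 2.88%) and 0.169% in MafLSEC-KO (0 to 4.37%, with 2 barcodes at 0). In barcodes without the 4 marker genes the medians were 0.0185% and 0.0112%, and in immune barcodes 0.00728% and 0.0442%. The share was above 1% in 12 control and 5 MafLSEC-KO barcodes, as the plot of each barcode shows.

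**Figure D1:**
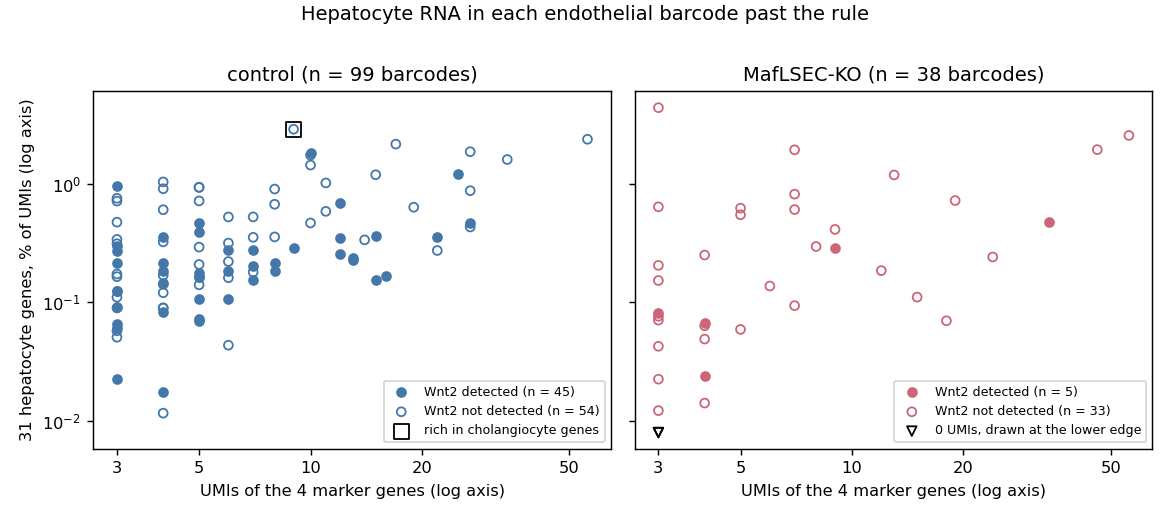
Each point is 1 endothelial barcode past the rule, with the UMIs of the 4 marker genes on the x axis and the percent of its UMIs from 31 other hepatocyte genes on the y axis (both log axes); filled points had a *Wnt2* UMI, the square marks the barcode rich in cholangiocyte genes and the open triangle stands for the 2 MafLSEC-KO barcodes at 0. The share is above 1% in 12 control and 5 MafLSEC-KO barcodes, and the highest point, at 4.37%, is a MafLSEC-KO barcode with 3 marker UMIs.

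The endothelial label was checked on lists of endothelial and LSEC genes. The endothelial list includes *Pecam1*, *Cdh5* and *Ptprb*, which the rule used, so its level is partly set by the choice of barcodes. The LSEC list holds no gene of the rule. A list of 10 endothelial genes (*Kdr*, *Flt1*, *Tek*, *Eng* and others) stood at 14859 CPM in control against 15957 CPM without marker UMIs, and at 11648 against 11652 CPM in MafLSEC-KO. A list of 12 LSEC genes (the scavenger receptors *Stab1* and *Stab2*, *Lyve1*, *Clec4g* and others) stood at 22349 against 24013 CPM, and at 6242 against 6735 CPM. No gene of either list was 2-fold apart. Fewer than 5 endothelial UMIs were found in 2 control and 4 MafLSEC-KO barcodes. Among the latter, the barcode with the highest hepatocyte share (4.37%) had 1670 UMIs, 2 of them endothelial, and 0.120% mitochondrial UMIs, where the median was 4.16%.

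In 1 control barcode the counts went against the label. It had 45041 UMIs, the most of the 99, with 1369 of *Spp1*, 33 of *Epcam*, 19 of *Sox9* and 6 of *Krt19*, all markers of bile duct cells (cholangiocytes), and 415 of *Alb* and 220 of *Ahsg*. Its only endothelial rule UMIs were 2 of *Ptprb*, *Maf* was at 0, and of its 9 marker UMIs 7 were of *Fbp1*. It held 415 of the 746 *Alb* UMIs of all 99 control barcodes, so gene levels below are given for the other 98 unless stated. The choice to set it aside was made after the values were seen.

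Secreted hepatocyte proteins and the list of enzymes, which includes the binding protein *Fabp1*, were compared with the background. In control the 15 genes of the enzyme list summed to 2013 CPM, against 266 CPM at 1 or 2 marker UMIs, 119 CPM at 0 and 83.7 CPM in immune barcodes. The 16 secreted proteins summed to 1365 CPM (2393 CPM with the cholangiocyte-rich barcode), against 355, 199 and 331 CPM. In MafLSEC-KO the enzymes summed to 1430, 153, 90.6 and 139 CPM, and the secreted proteins to 1276, 399, 140 and 1223 CPM in the same order. The ratio of enzymes to secreted proteins was 1.47 in control and 1.12 in MafLSEC-KO barcodes, 0.596 and 0.649 without marker UMIs, and 0.253 and 0.114 in immune barcodes. Without *Fabp1* the other 14 genes gave a ratio of 0.668 in control and 0.569 in MafLSEC-KO barcodes, 0.491 and 0.601 without marker UMIs, and 0.217 and 0.106 in immune barcodes, so that in MafLSEC-KO the ratio was no longer higher than without marker UMIs. The barcode with the most secreted UMIs held 762 of 2334 at 1 or 2 marker UMIs in MafLSEC-KO and 145 of 870 in its immune barcodes, and without such a barcode in each set the secreted sums of MafLSEC-KO were 1127, 272, 135 and 1040 CPM in the same order. The summed level of the secreted list was thus similar in MafLSEC-KO immune barcodes and in those past the rule through 3 genes, *Apoc1*, *Trf* and *Alb*, which summed to 964 and 666 CPM. The other 13 summed to 259 CPM in immune barcodes and 611 CPM in those past the rule.

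*Fabp1* was the most abundant of these genes. It was found in 94 of 98 control barcodes, with a median of 9 and a maximum of 69 UMIs over all 99, and in 31 of 38 MafLSEC-KO barcodes, with a median of 5 and a maximum of 51. The control level was 1101 CPM with an interval of 1041 to 1164, that of MafLSEC-KO 704 CPM with 635.4 to 778, against 20.8 and 6.75 CPM without marker UMIs and 12.0 and 9.84 CPM in immune barcodes. *Mat1a*, which makes S-adenosylmethionine in hepatocytes, stood at 108 and 85.7 CPM against 2.79 and 1.20 CPM, and *Uox*, the urate oxidase, at 84.9 and 80.2 CPM against 2.17 and 1.07 CPM. *Alb* stood at 293 and 224 CPM, against 45.7 and 33.5 CPM without marker UMIs and 95.6 and 197 CPM in immune barcodes. *Cat*, catalase, which many cell types make, stood at 223 and 144 CPM against 75.1 and 64.5 CPM.

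**Figure D2:**
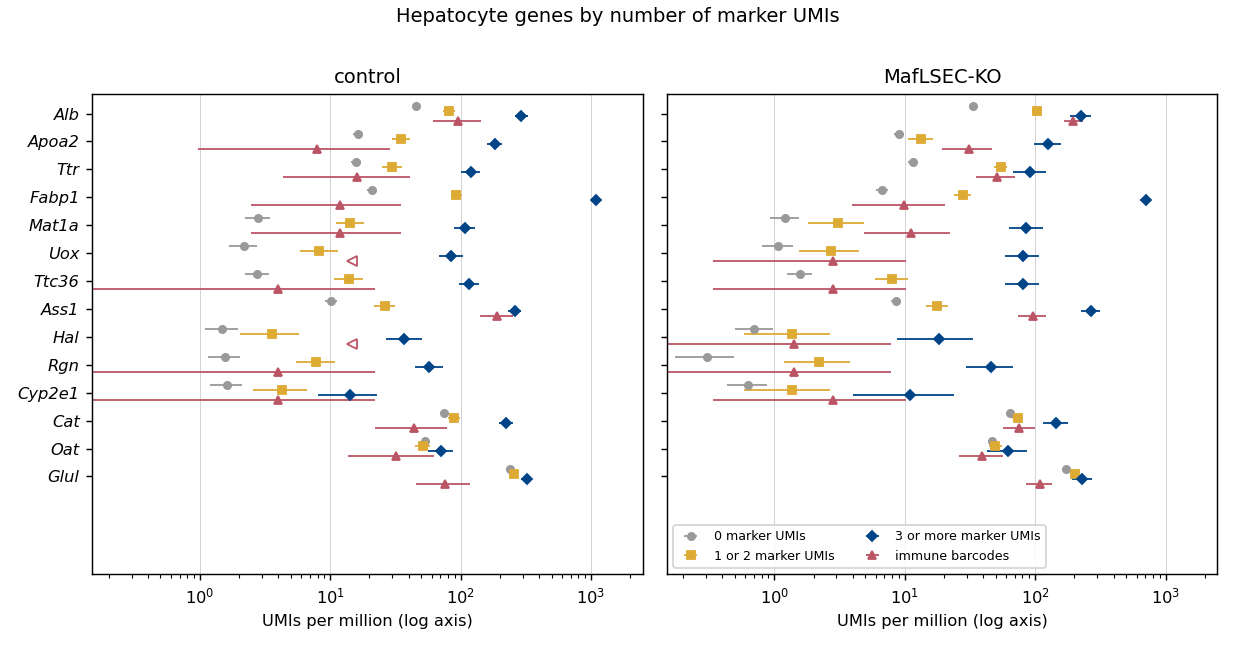
Levels of 14 hepatocyte genes (CPM, log axis, with 95% Poisson intervals) in endothelial barcodes with 0, with 1 or 2 and with 3 or more UMIs of the 4 marker genes and in immune barcodes; the control set is without the cholangiocyte-rich barcode (n = 98) and MafLSEC-KO has n = 38. Open triangles mark genes at 0 in that set, drawn at the upper bound. *Fabp1* stands at 1101 and 704 CPM in the barcodes past the rule, while *Glul* at 321 and 230 CPM and *Oat* at 70.7 and 62.0 CPM are less than 2-fold above their level without marker UMIs.

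Over all genes of at least 50 CPM in either set, 62 of 4160 (1.49%) were at least 2-fold higher in the 98 control barcodes than without marker UMIs and 8 (0.192%) at least 2-fold lower. With the cholangiocyte-rich barcode the counts were 84 of 4182 (2.01%) and 7 (0.167%), and 22 genes, among them *Spp1*, *Tm4sf4*, *Clu*, *Krt8* and *Vtn*, owed their place to it. In MafLSEC-KO 71 of 4452 (1.59%) were higher and 30 (0.674%) lower. Since these sets were chosen by hepatocyte transcripts, the direction of such genes is given as a description. At this minimum 7 of 7 genes of the secreted list were 2-fold higher in each library, and of the enzymes 7 of 7 in control and 8 of 8 in MafLSEC-KO. All of these but *Cat* met the minimum only through the barcodes chosen by hepatocyte transcripts. The minimum thus largely set these counts, and nothing is concluded from them. With no minimum, 7.84% of 18879 genes in control and 7.05% of 20201 in MafLSEC-KO were 2-fold higher, and 15 of 16 secreted proteins and 15 of 15 enzymes were in each library, 1 of them in MafLSEC-KO on 1 or 2 UMIs.

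The genes with the largest ratios were mostly enzymes of hepatocytes in both libraries, with the binding protein *Fabp1*, the secreted *Vtn* and the hormone *Hamp* among them. In control (all 99) they included *Ephx2*, the urea cycle gene *Otc* (67.6 against 1.21 CPM, in 35), *Fabp1*, *Pcbd1*, *Chchd10*, *Selenbp2*, *Vtn*, *Akr1c6*, *Ttc36*, *Inmt*, *Sult2a8*, *Tdo2*, *Car3* and *Adh1*. *Pcbd1*, *Ephx2* and *Vtn*, which had 111 of its 123 UMIs there, were among the 22 genes that needed the cholangiocyte-rich barcode. In MafLSEC-KO they included *Akr1c6* (104 against 0.953 CPM, in 14 barcodes), *Fabp1*, *Pck1* of gluconeogenesis (58.3 against 0.591 CPM, in 17), *Otc*, *Tat*, *Uox*, *Selenbp2*, *Mat1a*, *Cdo1*, *Hamp*, *Car3*, *Adh1*, *Hpd* and *Gsta3*. *Fabp1*, *Otc*, *Selenbp2*, *Akr1c6*, *Car3* and *Adh1* stood in both lists. *Hamp*, the iron hormone hepcidin, stood at 43.3 CPM in 30 control barcodes and 52.9 CPM in 17 MafLSEC-KO barcodes.

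Lower levels were found for haemoglobin RNA and for pericentral endothelial genes. Here over all 99 control barcodes, *Hbb-bs* stood at 52.2 against 650 CPM in control, with 56 of its 61 UMIs in 1 barcode, and at 10.9 against 156 CPM in MafLSEC-KO. *Wnt2*, *Kit* and *Rspo3* were among the 15 lowest ratios of control, and *Kit* and *Rspo3* among those of MafLSEC-KO. The interferon-response genes *Cxcl10* (86.5 against 198 CPM) in control and *Igtp* and *Ifit3b* in MafLSEC-KO, and the cell-cycle inhibitor *Cdkn1a* (117 against 296 CPM) in MafLSEC-KO, were also among the lowest.

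The first zonation question was whether the hepatocyte RNA of the 2 libraries differed in zone. It was asked of 3 pericentral genes, *Glul* (glutamine synthetase), *Cyp2e1* (a cytochrome P450) and *Oat* (ornithine aminotransferase), and 3 periportal genes, *Cyp2f2* (a cytochrome P450), *Hal* (histidine ammonia-lyase) and *Sds* (serine dehydratase). On GRCm38/mm10 with GENCODE M21 gene models, *Glul* lies on chromosome 1 from 153899944 to 153909723 (+ strand), *Cyp2e1* on chromosome 7 from 140763739 to 140774987 (+), *Oat* on chromosome 7 from 132557478 to 132576398 (-), *Cyp2f2* on chromosome 7 from 27119909 to 27133660 (+), *Hal* on chromosome 10 from 93488768 to 93519304 (+) and *Sds* on chromosome 5 from 120476526 to 120483932 (+). The 99 control barcodes held 365 UMIs of *Glul*, 16 of *Cyp2e1*, 80 of *Oat*, 5 of *Cyp2f2*, 42 of *Hal* and 10 of *Sds*. The 38 MafLSEC-KO barcodes held 126, 6, 34, 3, 10 and 12. The pericentral genes had 461 of 518 UMIs in control (89.0%, 86.0 to 91.6%) and 166 of 191 in MafLSEC-KO (86.9%, 81.3 to 91.3%), a difference of -2.09 percentage points with a counting interval of -8.11 to 2.96 (Newcombe).

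*Glul* and *Oat* were also abundant in endothelial barcodes without the 4 marker genes. There *Glul* stood at 237 CPM in control and 174 CPM in MafLSEC-KO and *Oat* at 53.2 and 46.7 CPM, and the pericentral share of the 6 genes was 99.3% and 99.4%. At those levels, 344 of the 461 pericentral UMIs of control and 118 of the 166 of MafLSEC-KO are what barcodes of this depth would hold. *Glul* was above this level by 85.6 UMIs in control and 33.5 in MafLSEC-KO, and *Oat* by 17.4 and 9.15. The 3 periportal genes were above it by 54.7 and 24.3 UMIs, nearly all that were counted. *Cyp2e1*, at 1.61 and 0.629 CPM without marker UMIs, was the only one of the 3 pericentral genes with a low background. Set alone against the 3 periportal genes, it gave 16 of 73 UMIs (21.9%, 13.1 to 33.1%) in control and 6 of 31 (19.4%, 7.45 to 37.5%) in MafLSEC-KO, where its 6 UMIs lay in 2 barcodes.

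Longer zonation lists were then limited to genes below 5 CPM in barcodes without marker UMIs of both libraries, a rule chosen after the background of *Glul* and *Oat* had been seen. It left 19 of 21 pericentral and 14 of 17 periportal genes. The pericentral genes took 101 of 328 UMIs in control (30.8%, 25.8 to 36.1%) and 50 of 155 in MafLSEC-KO (32.3%, 24.98 to 40.2%). Without marker UMIs the same genes gave 65.5% and 56.0%. There the highest pericentral genes were *Cyp27a1* (3.32 CPM) and *Axin2* (2.39 CPM) in control and *Tbx3* (2.12 CPM) in MafLSEC-KO. Whether those UMIs came from hepatocytes was not tested, so these shares are not a reference for hepatocyte zone. More periportal than pericentral UMIs were found in 55 control and 24 MafLSEC-KO barcodes and more pericentral in 24 and 6, with 5 and 1 tied and 15 and 7 at 0 for both kinds. Both kinds were present in 26 control and 10 MafLSEC-KO barcodes.

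The most abundant pericentral gene of this set was *Rgn*, regucalcin, in both libraries. It had 65 of the 101 pericentral UMIs in control (25 barcodes) and 25 of 50 in MafLSEC-KO (9 barcodes), with 1.55 and 0.305 CPM without marker UMIs. Without *Rgn* the pericentral share was 13.7% (9.77 to 18.4%) and 19.2% (12.8 to 27.1%). *Glul*, the glutamine synthetase of the pericentral rim, was counted above and is not in this set for its endothelial level. Of other genes known for the rim, *Lgr5*, *Tbx3* and *Cyp1a2* were at 0 in both libraries, *Axin2* had 5 UMIs in control and 1 in MafLSEC-KO, and *Cyp2c29* had 2 and 4. *Ass1*, argininosuccinate synthase, stood at 261 CPM in control and 266 CPM in MafLSEC-KO (10.2 and 8.58 CPM without marker UMIs, but 191 and 95.6 CPM in immune barcodes). *Cps1*, the first urea cycle enzyme, had 32 UMIs in 25 control barcodes and 6 in 4 MafLSEC-KO barcodes, and *Gls2*, the liver glutaminase, 28 in 21 and 16 in 12. With no minimum level, where 7.84% and 7.05% of all genes were called, 9 of 21 pericentral and 17 of 17 periportal genes were 2-fold above the level without marker UMIs in the 98 control barcodes, and 10 of 21 and 15 of 17 in MafLSEC-KO. Of these calls 6 and 5 in control and 5 and 2 in MafLSEC-KO rested on 1 or 2 UMIs. At 50 CPM 1 of 3 pericentral and 2 of 2 periportal genes were called in control, and 0 of 2 and 3 of 3 in MafLSEC-KO. Here too the called genes met the minimum only through the barcodes past the rule. In MafLSEC-KO 8 pericentral genes, and in the 98 control barcodes 9, had no UMI.

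Single genes differed between libraries in both directions. On the CPM scale, MafLSEC-KO over control (98), the median log2 ratio was -0.03 over the 16 secreted proteins (7 higher, 9 lower), -0.33 over the 15 enzymes (2 higher, 13 lower), 0.04 over the 11 pericentral genes counted in both and 0.03 over 15 periportal genes. The median over all genes of at least 50 CPM was 0.11, and -0.01 when all UMIs were used for scaling. *Fabp1* was lower in MafLSEC-KO at -0.65 (-0.81 to -0.48), *Cat* at -0.63 (-1.01 to -0.26) and *Fah* at -1.02 (-2.12 to -0.05). Hemopexin (*Hpx*) was higher at 1.17 (0.27 to 2.07). Within the periportal list *Cps1* (-1.37, -2.92 to -0.09) and *Hal* (-1.03, -2.19 to -0.01) were lower, whereas *Pck1* (0.92, 0.18 to 1.65) and *Sds* (1.46, 0.09 to 2.89) were higher. *Sds* had 9 UMIs in 7 control barcodes and 12 in 8 MafLSEC-KO barcodes.

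The amount of hepatocyte RNA per barcode enters these ratios. Relative to the summed UMIs of the 31 genes, the medians of the secreted proteins and enzymes were 0.29 and -0.01, *Fabp1* was at -0.33 (-0.49 to -0.16) and *Pck1* at 1.24 (0.50 to 1.97), while the intervals of *Hal* (-1.87 to 0.31) and *Cps1* (-2.60 to 0.23) covered 0. When every barcode was given the same weight, *Fabp1* of all 99 control barcodes turned to 0.17 in favour of MafLSEC-KO. *Alb* was at -1.51 with the cholangiocyte-rich barcode and at -0.38 without it, and *Ahsg* at -2.84 and -0.15.

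Beyond the hepatocyte genes, 367 of 4591 genes (7.99%) were at least 2-fold higher in MafLSEC-KO and 266 (5.79%) lower, with 347 and 266 of 4599 (7.55% and 5.78%) when the cholangiocyte-rich barcode was kept. None of the 16 secreted proteins and 15 enzymes was among the 10 largest or 10 smallest ratios. The highest ratios were those of *Pcp4l1* (653 against 3.54 CPM), *Fcor* (744 against 7.96 CPM), the neutrophil gene *S100a8* (74.8 against 0.884 CPM, 37 of 41 UMIs in 1 barcode), the histone gene *Hist1h1b* (74.8 against 0.884 CPM, 22 of 41 in 1 barcode) and the capillary gene *Ly6c1* (713 against 8.84 CPM), followed by the cell-cycle gene *Ccnb2* and *Trim59*. The lowest included *Npl*, *Dnase1l3* (83.9 against 3430 CPM) and *Slc39a8*, with *Maf* at 119 against 3511 CPM. All of these had the same direction in barcodes without marker UMIs, where *Maf* stood at 94.9 against 3405 CPM.

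The second zonation question was whether the hepatocyte RNA differed with the zone of the endothelial partner, taken from *Wnt2* (chromosome 6 from 17988940 to 18030585, - strand). *Wnt2* was found in 45 of 99 control and 5 of 38 MafLSEC-KO barcodes. Its level also differed between the libraries where marker UMIs were absent, at 299 CPM in control and 46.8 CPM in MafLSEC-KO, so that its detection does not mark zone alike in both, and the comparison by *Wnt2* is given within each library. Over the 6 zonated genes, the pericentral share in control was 240 of 257 UMIs (93.4%) with *Wnt2* and 221 of 261 (84.7%) without, a difference of 8.71 percentage points (3.35 to 14.2). In MafLSEC-KO it was 26 of 27 UMIs (96.3%) in the 5 barcodes with *Wnt2* and 140 of 164 (85.4%) in the other 33, a difference of 10.9 points with an interval of -4.36 to 17.9.

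Depth and the amount of hepatocyte RNA moved with *Wnt2*. Control barcodes with *Wnt2* had a median of 15318 UMIs and 0.202% of UMIs from the 31 hepatocyte genes, and those without had 8760.5 UMIs and 0.394%. In MafLSEC-KO the medians were 37655 UMIs and 0.0811% with *Wnt2* and 12140 UMIs and 0.185% without. Above the level without marker UMIs, the pericentral genes had 42.1 UMIs and the periportal genes 15.7 in control barcodes with *Wnt2*, and 74.9 and 39.0 in those without. In MafLSEC-KO with *Wnt2* the pericentral genes were 7.55 UMIs below that level. When *Wnt2* was called after thinning to 3000 UMIs, the difference in control was 2.83 points (-5.26 to 8.32).

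In control barcodes with *Wnt2*, here of all 99, the 17 periportal genes summed to a lower level, 546 CPM against 1126 CPM without *Wnt2*, and the 21 pericentral genes to 431 against 518 CPM. Of the periportal genes 12 were lower and 5 higher with *Wnt2*, and of the pericentral genes 8 were lower, 5 higher and 8 without a UMI. *Hal* had 12 UMIs (17.8 CPM, 9.18 to 31.03) in 11 of 45 control barcodes with *Wnt2* and 30 (61.0 CPM, 41.1 to 87.0) in 17 of 54 without, and without *Hal* the difference in pericentral share was 2.29 points (-1.01 to 5.93). *Ass1* stood at 175 CPM with *Wnt2* and 362 CPM without and *Sds* at 2.96 and 16.3 CPM, whereas *Pck1* (31.1 and 28.4 CPM), *Gls2* (25.2 and 22.3 CPM) and *Cyp2f2* (4.44 and 4.06 CPM) were about equal. *Fabp1*, which is not on either zonation list, was also lower with *Wnt2*, at 752 against 1499 CPM. *Glul* itself was lower with *Wnt2* (266 against 376 CPM), *Cyp2e1* about equal (13.3 against 14.2 CPM, 9 and 7 UMIs) and *Rgn* a little higher (60.7 against 48.8 CPM), with intervals of *Rgn* and *Cyp2e1* that overlap.

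With the genes of low background the difference by *Wnt2* was larger. In control the pericentral share was 38.2% (30.6 to 46.3%) with *Wnt2* and 23.98% (17.8 to 31.1%) without, a difference of 14.2 points (4.23 to 23.9). Without *Rgn* the shares were 16.4% and 11.6%, a difference of 4.81 points with an interval of -3.55 to 13.7 that covers 0. In MafLSEC-KO they were 64.3% (18 of 28 UMIs) and 25.2% (32 of 127), of which *Rgn* gave 12 UMIs in 4 of the 5 barcodes with *Wnt2*. Without *Rgn* they were 37.5% (6 of 16 UMIs) and 16.7%, but without the 1 barcode with the most pericentral UMIs the share with *Wnt2* was 11.1% (1 of 9 UMIs), below that without *Wnt2*. With *Rgn* kept and that barcode left out the difference was 21.5 points (-1.88 to 45.6). Barcodes with more pericentral than periportal UMIs of these genes were 14 of 45 with *Wnt2* and 10 of 54 without in control, and 3 of 5 and 3 of 33 in MafLSEC-KO. The pericentral share stayed below 50% of these UMIs in the control barcodes past the rule, all together and with and without *Wnt2*.

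**Figure D3:**
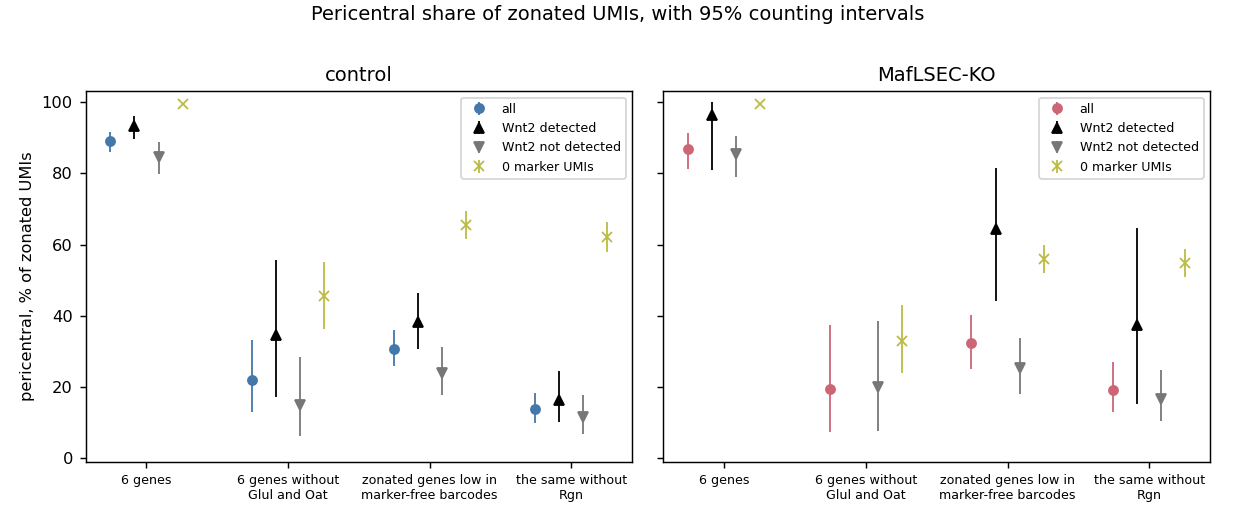
Pericentral share (percent of zonated UMIs, with 95% Clopper-Pearson intervals) in all barcodes past the rule (control n = 99, MafLSEC-KO n = 38), in those with and without a *Wnt2* UMI, and in endothelial barcodes with 0 marker UMIs, for 4 choices of zonated genes; sets with fewer than 5 zonated UMIs are not drawn. The 6 genes give 89.0% and 86.9% in all barcodes past the rule, and the genes with a low level in marker-free barcodes give 30.8% and 32.3%.

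A choice of barcodes by hepatocyte genes of weak zonation (*Ahsg*, *Ambp*, *Hpx*, *Apoh*, *Fgb* and *Fga*, at least 3 UMIs and a share of UMIs above the 99th percentile of immune barcodes) gave 50 control (1.10%) and 18 MafLSEC-KO barcodes (0.407%), of which 11 and 4 were also past the main rule. Their pericentral share was 92.3% (180 of 195 UMIs) and 90.7% (39 of 43) over the 6 genes, and 20.9% (12.9 to 31.05%) and 37.8% (26.8 to 49.9%) over the genes of low background. By *Wnt2* the latter share was 33.3% (6 of 18 UMIs) and 17.65% (12 of 68) in control. In MafLSEC-KO 1 such barcode had *Wnt2*.

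The endothelial RNA of the barcodes leaned to the periportal side. In control, 6 pericentral endothelial genes summed to 716 CPM (668 to 767), against 790 CPM at 1 or 2 marker UMIs and 1156 CPM at 0. The 6 periportal endothelial genes summed to 3457 CPM (3350 to 3567), against 2994 and 2539 CPM. In MafLSEC-KO the pericentral genes summed to 126 CPM (97.9 to 159), against 307 and 323 CPM, and the periportal genes to 1924 CPM (1809 to 2043), against 1794 and 1582 CPM. The median of pericentral endothelial UMIs per barcode was 2, 3 and 4 in control, but 1 in each of the 3 sets of MafLSEC-KO. In control all 6 pericentral genes were lower and all 6 periportal genes higher than without marker UMIs, with log2 ratios of -0.91 to -0.14 and 0.26 to 0.80. In MafLSEC-KO 4 pericentral genes were lower, *Wnt9b* had no UMI (12.3 CPM without marker UMIs) and *Thbd* was higher, and 5 periportal genes were higher and *Adam23* lower.

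*Wnt2* stood at 164 CPM (141 to 189) in control, against 216 CPM at 1 or 2 marker UMIs and 299 CPM at 0, and was found in 45.9%, 54.6% and 62.2% of these barcodes. In MafLSEC-KO it stood at 25.5 CPM (14.0 to 42.8), 45.1 CPM and 46.8 CPM, in 13.2%, 16.7% and 19.9% of barcodes. At 3000 UMIs per barcode the shares with *Wnt2* were 21.3% (13.4 to 31.3%), 32.2% and 43.6% in control and 2.86% (1 of 35), 6.55% and 7.78% in MafLSEC-KO. *Kit*, a receptor of pericentral endothelium, stood at 212 against 370 CPM in control. *Rspo3* stood at 91.0 against 171 CPM, but 72 of its 103 UMIs were in 1 barcode, without which it stood at 27.6 CPM. *Msr1*, a scavenger receptor, stood at 604 CPM in control against 457 and 347 CPM and *Ntn4*, a netrin, at 476 against 402 and 298 CPM. At 3000 UMIs *Msr1* was found in 65.2%, 56.1% and 43.6% of control barcodes and in 37.1%, 26.2% and 21.0% of MafLSEC-KO barcodes. Other genes were less clear at this depth. In control pericentral *Cdh13* was found in 23.6%, 14.8% and 25.6%, and periportal *Dll4* in 28.1%, 31.7% and 25.7%. Against barcodes without marker UMIs, MafLSEC-KO had periportal *Dll4* (31.4% against 32.6%) and *Ntn4* lower and pericentral *Thbd* higher (11.4% against 8.15%). The other genes of both lists had the direction of their list in each library. In the band of 5000 to 20000 UMIs, the 6 pericentral genes of control were again lower and the 6 periportal genes higher than without marker UMIs, with *Wnt2* at 129, 202 and 310 CPM and *Msr1* at 662, 449 and 352 CPM. Of these genes 3 pericentral and 5 periportal were in order over the 3 sets, whereas *Wnt9b* (22.0, 8.32 and 22.6 CPM), *Thbd* (113, 89.9 and 127 CPM), *Rspo3* and *Dll4* were not. *Rspo3*, at 139, 61.6 and 181 CPM, was out of order only through the barcode with 72 of its UMIs. Without that barcode its first value was 34.1 CPM. In MafLSEC-KO 5 pericentral genes were lower in this band, 2 of them without a UMI, and 6 periportal genes higher, *Adam23* among them at 312 against 245 CPM.

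**Figure D4:**
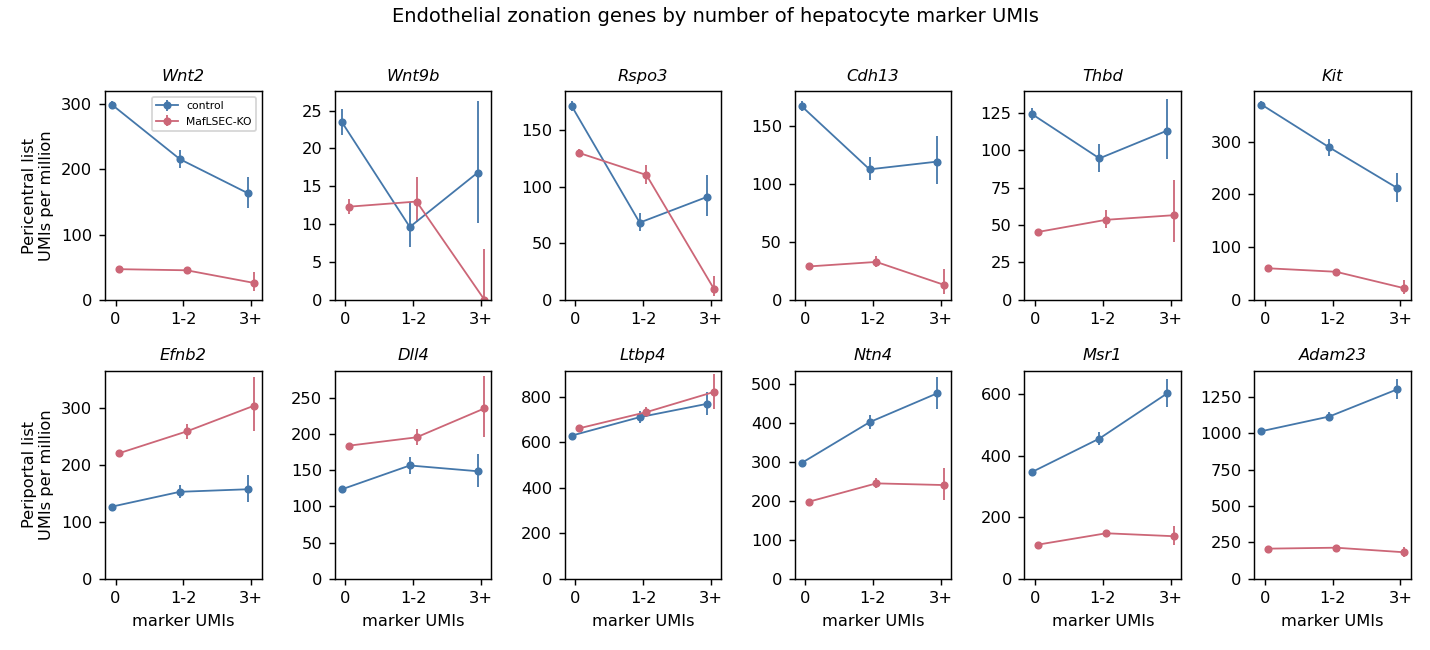
Levels of 6 pericentral (upper row) and 6 periportal (lower row) endothelial genes in CPM, with 95% Poisson intervals, in endothelial barcodes with 0, with 1 or 2 and with 3 or more UMIs of the hepatocyte marker genes; each panel has its own axis from 0 and the last control set is without the cholangiocyte-rich barcode (n = 98). *Wnt2* goes from 299 to 164 CPM and *Msr1* from 347 to 604 CPM in control.

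Within the barcodes past the rule, more marker UMIs went with more of the other hepatocyte RNA. In control the median share of the 31 genes was 0.165% at 3 or 4 marker UMIs, 0.217% at 5 to 9 and 0.585% at 10 or more, and in MafLSEC-KO 0.0655%, 0.412% and 0.473%. The pericentral share over genes of low background was 25.5%, 30.6% and 34.1% in control, with intervals that overlap (14.7 to 39.0%, 21.0 to 41.5% and 27.1 to 41.6%). In MafLSEC-KO it was 41.9% (13 of 31 UMIs), 30.6% and 29.3%, but single barcodes held 10 of 13, 9 of 15 and 11 of 22 pericentral UMIs. Without that barcode of each band the shares were 14.3%, 16.2% and 17.7%, so no order can be read from them. The barcode with 10 is the one of 1670 UMIs described above. *Wnt2* was found in 16 of 37, 17 of 34 and 12 of 27 control barcodes. The 10 endothelial genes stood at 15943, 16072 and 13569 CPM in control and at 11769, 11261 and 11649 CPM in MafLSEC-KO.

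RNA of further cell types was uneven. Over 34 markers of Kupffer, stellate, bile duct, platelet, B, T or NK and neutrophil cells, at least 2 UMIs were found in 26 of 99 control (26.3%) and 25 of 38 MafLSEC-KO barcodes (65.8%). Over all endothelial barcodes the shares were 19.2% (871 of 4546) and 51.0% (2251 of 4418). In control the 8 Kupffer cell genes stood at 80.4 CPM in 32 barcodes against 112 CPM without marker UMIs, the 7 stellate genes at 12.4 against 77.1 CPM, and the 3 B cell genes at 0. In MafLSEC-KO the Kupffer cell genes stood at 306 CPM in 25 barcodes against 121 CPM, with 102 of 168 UMIs in 1 barcode, the 4 platelet genes at 128 against 41.6 CPM, and the 3 neutrophil genes at 164 against 24.6 CPM, with 77 of 90 UMIs in 1 barcode. *Vwf*, of large vessels, was found in 4 control barcodes (7.96 against 26.4 CPM) and in 17 MafLSEC-KO barcodes (226 against 133 CPM). With barcodes of 2 or more such UMIs left out, the share in MafLSEC-KO was 0.600% and the difference in pericentral share over the 6 genes was 4.16 points (-6.23 to 10.7). Their part in the differences between libraries was not tested.

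The 7 male-biased genes (*Mup20*, *Elovl3*, *Cyp7b1* and others) summed to 99.9 CPM in control and 129 CPM in MafLSEC-KO, against 17.4 and 6.90 CPM without marker UMIs. The 5 female-biased genes had no UMI in either, and *Xist* had none. Genes of the Y chromosome on the same list as *Xist* had 258 UMIs in 64 control and 72 in 23 MafLSEC-KO barcodes. The 10 acute phase genes, led by *Hamp*, summed to 86.6 and 98.5 CPM.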

How the data were processed

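The deposited tables hold raw counts, the number of UMIs of each of 32285 genes in each barcode of at least 500 UMIs. Per the labels and methods the authors made them with Cell Ranger 6.0.2 on mm10; they then used Seurat 5.0.1, subtracted the mean of empty droplets, removed doublets with a doublet caller and left out hepatocytes, none of which is part of these counts or was repeated. Removing doublets or hepatocytes could remove barcodes described here. Some genes, 1 of the 4 marker genes among them, are not reported here by name. No doublet caller was run for the values given here.

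Counts were summed over barcodes with Python 3.11.15, numpy 2.4.6, scipy 1.17.1 and pandas 2.3.3, and divided by UMIs outside mitochondrial and ribosomal protein genes. A gene was called when at least 2-fold apart and at least 50 CPM in either set, and list counts are given also with no minimum. Summing and intervals were tested on simulated data. Precision follows the number of UMIs behind each value, and totals per library are in the report. Genes were named from lists of cell types, hepatocyte products and zonation, and as the 15 largest and 15 smallest ratios within each library and the 10 largest and 10 smallest between libraries. Members and lists were chosen with earlier results of these data known. Alternatives (other marker minima, genes, depths, scalings and filters) are given in the closing section. Barcodes with at least 3 marker UMIs but neither endothelial nor *Ptprc* UMIs, and those of other cell types, were used for comparison only.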

Additional observations from a re-analysis of the deposited data

How the results depend on the processing

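The share of endothelial barcodes with hepatocyte transcripts was higher in control than in MafLSEC-KO under all alternatives but the minimum of 30 marker UMIs, where 2 and 3 barcodes were left (0.0440% and 0.0679%). In the same order it was 4.22% and 1.83% at 2 marker UMIs, 1.36% and 0.453% at 5, 0.594% and 0.204% at 10, 1.47% and 0.566% without *Bhmt*, 1.10% and 0.407% by weakly zonated genes, and 0.611% and 0.256% when barcodes were thinned before the rule. In control it was 1.74% without *Gnmt* and 1.63% with markers at 0.05% of UMIs or more, and in MafLSEC-KO 0.600% without barcodes of other cell types.

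The difference in pericentral share between libraries was negative in 24 and positive in 7 of 31 alternatives. It was -9.42 points at 5 marker UMIs (-19.1 to -1.33), -11.8 at 0.05% of UMIs (-24.0 to -1.06) and -5.14 without *Hal* (-10.2 to -1.37), intervals that do not cover 0, as at 30 marker UMIs with 44.2 (7.88 to 67.6) on 2 and 3 barcodes. It was 9.01 after thinning before the rule, 4.16 without barcodes of other cell types and 5.54 with low-background genes without *Rgn*. The difference by *Wnt2* was positive in all 33 alternatives of control (2.29 to 30.6) and in 29 of 30 of MafLSEC-KO (-5.56 to 50). The alternatives share barcodes, so these counts are not independent support. In control the difference moved to 18.1 at 10 marker UMIs, 30.6 without *Glul*, 2.29 without *Hal*, 14.2 with low-background genes and 2.83 with *Wnt2* called after thinning. Its interval covered 0 without *Hal* (-1.01 to 5.93) and with *Wnt2* called after thinning (-5.26 to 8.32). It also did at 2 or more *Wnt2* UMIs (5.48, -0.405 to 10.4) and after thinning before the rule (6.58, -41.2 to 36.9). With low-background genes less *Rgn* the difference was 4.81 (-3.55 to 13.7). In MafLSEC-KO it moved to 23.6 at 5, 21.8 at 10 and 50 at 30 marker UMIs, 31.7 at 0.05% of UMIs, 20.3 without barcodes with *Vwf*, 27.1 without *Glul*, 39.1 with low-background genes and 20.8 with these less *Rgn*. The interval covered 0 at 5 (-9.73 to 33.4) and 10 marker UMIs (-11.8 to 34.4) and at 0.05% of UMIs (-2.25 to 44.0). It also did without barcodes with *Vwf* (-19.5 to 31.7) and without *Glul* (-11.8 to 44.5). It did not at 30 marker UMIs (6.83 to 78.5), with low-background genes (18.9 to 55.5) and with these less *Rgn* (0.238 to 45.4). At most 5 barcodes with *Wnt2* stood behind each value. Without the *Wnt2* barcode with the most pericentral UMIs, low-background genes less *Rgn* gave 2.72 in control, -5.56 in MafLSEC-KO and 3.52 between libraries, and with *Rgn* 21.5 in MafLSEC-KO. Without the barcode highest over all, low-background genes with *Rgn* kept gave 18.2 in control and 21.5 in MafLSEC-KO. The causes were not tested.

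With all 99 control barcodes, counts of genes 2-fold higher and lower within control were 332 and 92 at a minimum of 10 CPM and 20 and 3 at 200 CPM. At 1.5-fold they were 129 and 29, and at 4-fold 4 were lower. In MafLSEC-KO they were 329 and 355, 9 and 1, 158 and 149, and 43 and 3 in the same order, with 14 lower when scaled to all UMIs and 227 and 81 by the mean over barcodes. Between libraries they were 1107 and 817, 90 and 95, 827 and 592, and 96 and 87, with 230 higher and 299 lower when scaled to all UMIs. A changed minimum alters the number of genes tested, and a changed fold alters which are called. Why counts moved with the scaling or the mean over barcodes was not tested. The median log2 ratio of the 31 hepatocyte genes between libraries, -0.39, was 0.52 per UMI of the secreted list and 0.14 by the mean over barcodes. *Fabp1* turned to 0.31 and 0.17 under these scalings and *Apoa2* to 0.42 and 0.0606. Without the cholangiocyte-rich barcode the median was -0.13, and -0.0287 per UMI of the secreted list, where *Fabp1* (-0.55) and *Apoa2* (-0.44) did not turn. By the mean over the other barcodes the median was 0.16, *Fabp1* 0.16, *Apoa2* 0.046 and *Ahsg* 0.22. These were added after the values were seen.

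No paired analysis was possible because each group is 1 library. Leaving out a replicate was not possible for the same reason. Few UMIs of each zonated gene limit what can be read: 518 in control and 191 in MafLSEC-KO over the 6 genes, 27 of them in MafLSEC-KO barcodes with *Wnt2*. The mice of a pool cannot be told apart, and genotype cannot be told apart from library.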

Other observations

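*Igfbp5*, a secreted binding protein of insulin-like growth factors, was unevenly spread over the barcodes past the rule. In the 98 control barcodes it had 131 UMIs in 8 barcodes (116 CPM, against 34.8 CPM without marker UMIs), and in the 38 MafLSEC-KO barcodes 249 UMIs in 12 (454 against 116 CPM). *Pf4*, a platelet chemokine, had 11 UMIs in 10 control barcodes and 45 in 11 MafLSEC-KO barcodes (82.1 against 18.2 CPM without marker UMIs). Cell-cycle genes (*Mki67*, *Top2a*, *Birc5* and *Ccnb1*) summed to 30.9 CPM in control, with 30 of 35 UMIs in 1 barcode, and to 614 CPM in 15 MafLSEC-KO barcodes, against 101 and 618 CPM without marker UMIs.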
